A study of Saccharomyces cerevisiae with 4 samples.

Results

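The 51 genes described here encode nucleolar ribosome assembly factors of Saccharomyces cerevisiae, the budding yeast: the NOP, UTP and DBP genes and other factors that act on ribosomal RNA before the subunits leave the nucleolus. They were taken by name from a list of gene identifiers, and all 51 were among the 5798 genes of the deposited table. Small RNA of 10 to 40 nucleotides was sequenced from 4 genotypes, with 1 library each and no replicate. The libraries came from cells with XRN1 deleted that carried DCR1 and AGO1 (xrn1 DCR1 AGO1, strain YAM1982), from cells with DCR1 and AGO1 and an intact XRN1 (DCR1 AGO1, strain YAM1725), from cells with XRN1 deleted and without the added genes (xrn1, strain YAM2271), and from wild-type cells (WT, strain YAM1730). DCR1 encodes Dicer, an enzyme that dices long double-stranded RNA, and AGO1 encodes the Argonaute protein that is loaded with the products. Budding yeast has neither gene, and the pair rebuilds RNA interference in it. XRN1 encodes the cytoplasmic exonuclease that degrades RNA from its 5′ end. Each genotype is a single strain. The labels do not say from which promoter DCR1 and AGO1 were expressed, and in bulk cultures small RNA in fewer cells and less small RNA per cell cannot be told apart.

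Ribosome assembly starts on the nascent ribosomal RNA precursor. Box C/D small nucleolar ribonucleoproteins (snoRNPs) modify it, the small subunit processome with its UtpA and UtpB complexes folds and cuts its small subunit part, DEAD-box helicases remodel RNA pairings, and a further set of factors builds the large subunit. In budding yeast these genes are transcribed together under good growth conditions, and their promoters are known for a pair of sequence elements called PAC and RRPE. By role the members fall into 3 box C/D core genes, 6 UtpA genes, 4 UtpB genes, 12 other small subunit genes, 11 DEAD-box helicase genes and 15 large subunit factor genes.

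Reads over the listed genes numbered 7686801 in xrn1 DCR1 AGO1, 1801407 in DCR1 AGO1, 2825322 in xrn1 and 627607 in WT. Values are on the scale of the deposited table, on which 1 read was worth 0.0762, 0.318, 0.330 and 1 in that order, and they are not divided by gene length. Intervals are exact 95% intervals of counting error alone, without replicates and without molecular identifiers. The deleted gene was checked first: XRN1 (YGL173C) had 0 reads in xrn1 DCR1 AGO1 (a floor of 3 reads is 0.229 there, and the exact interval ends at 0.281) and 12.4 in DCR1 AGO1, and it had 0.991 (3 reads) in xrn1 and 148 in WT. The share of reads on mitochondrial genes was 0.0394% in xrn1 DCR1 AGO1 and 0.361% in DCR1 AGO1, against 33.1% in xrn1 and 26.7% in WT. They were left out of the comparisons with all genes, which use the 5775 nuclear genes, and their part in how the libraries were scaled was not tested.

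The promoters show what the members share beyond their function. In the 250 bases before the start codon of the R64 reference (RefSeq), 47 of the 51 members held the PAC core GATGAG on either strand, or 92.2%, against 963 of 5766 nuclear genes, or 16.7%. The RRPE core GAAAAATTT, on either strand, lay in 28 members (54.9%), against 352 of the 5766 genes (6.11%). Both cores were found in 25 members and in 171 genes, and no PAC match shared a base with an RRPE match in any member. In 14 members PAC matches shared a base with each other. The PAC match nearest the start codon began 53 to 204 bases before it, with a median of 110. UTP22 was the member with neither core in its window, which says only that these letters are absent there. The next lines give bases 250 to 101 before the start codon, on the coding strand, for members at the extremes of the results below: NOP58 and RRP5, among the lowest small RNA differences on addition of DCR1 and AGO1, DBP3 and NSR1, the members whose differences were above 0 on the deposited scale, and UTP22. Capitals mark the PAC and RRPE cores.
NOP58 (YOR310C, chromosome XV, minus strand): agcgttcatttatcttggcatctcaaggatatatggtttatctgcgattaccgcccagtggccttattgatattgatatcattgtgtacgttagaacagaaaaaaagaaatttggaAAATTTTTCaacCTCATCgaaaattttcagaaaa
RRP5 (YMR229C, chromosome XIII, minus strand): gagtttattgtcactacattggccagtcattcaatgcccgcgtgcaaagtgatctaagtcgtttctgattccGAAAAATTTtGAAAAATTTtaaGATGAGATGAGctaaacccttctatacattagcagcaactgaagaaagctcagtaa
DBP3 (YGL078C, chromosome VII, minus strand): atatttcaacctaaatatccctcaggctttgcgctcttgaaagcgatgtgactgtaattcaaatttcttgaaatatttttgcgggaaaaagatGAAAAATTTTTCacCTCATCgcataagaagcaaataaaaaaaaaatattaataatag
NSR1 (YGR159C, chromosome VII, minus strand): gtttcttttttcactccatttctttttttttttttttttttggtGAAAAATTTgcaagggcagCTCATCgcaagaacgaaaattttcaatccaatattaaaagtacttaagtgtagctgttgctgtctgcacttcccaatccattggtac
UTP22 (YGR090W, chromosome VII, plus strand): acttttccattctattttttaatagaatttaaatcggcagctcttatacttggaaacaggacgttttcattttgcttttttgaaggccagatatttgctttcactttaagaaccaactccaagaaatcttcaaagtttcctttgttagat

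NOP58 and RRP5 hold both cores in these windows, and so do DBP3 and NSR1. UTP22, with neither, was among the members with the lowest differences. The sign of NSR1 is not settled, since its 0.07 in DCR1 AGO1 over WT turned to -0.25 with division by library sums. These members were picked at the extremes, and whether the cores go with the differences was not tested. The 4 members without a PAC core, UTP4, UTP15, UTP22 and UTP30, had a median log2 difference of -2.78 in DCR1 AGO1 over WT, against -3.32 for the 47 with one. In xrn1 DCR1 AGO1 over xrn1 the order was the other way, with -3.03 for the 4 and -2.87 for the 47.

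Together the members took 0.282% of the reads over nuclear genes in xrn1 DCR1 AGO1 (Clopper-Pearson interval 0.278 to 0.286%) and 0.167% in DCR1 AGO1 (0.161 to 0.173%), against 1.37% in xrn1 (1.35 to 1.39%) and 1.33% in WT (1.301 to 1.37%). Their median value was 14.0 in xrn1 DCR1 AGO1 and 4.76 in DCR1 AGO1, against 147 in xrn1 and 75 in WT. The medians over nuclear genes were 19.2 in xrn1 DCR1 AGO1, 11.1 in DCR1 AGO1, 70.7 in xrn1 and 48 in WT. The members thus lay above the nuclear median in the libraries without DCR1 and AGO1 and below it in those with them. Per kilobase of coding sequence the member medians were 7.71 in xrn1 DCR1 AGO1, 2.88 in DCR1 AGO1, 79.6 in xrn1 and 41.4 in WT, and those of 5770 nuclear genes were 15.3, 9.31, 53.9 and 37.5 in the same order. In DCR1 AGO1 the members had between 0 and 749 reads with a median of 15, and 16 of them were below the pseudocount of 3.18 that was added before logarithms were taken.

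**Figure D1:**
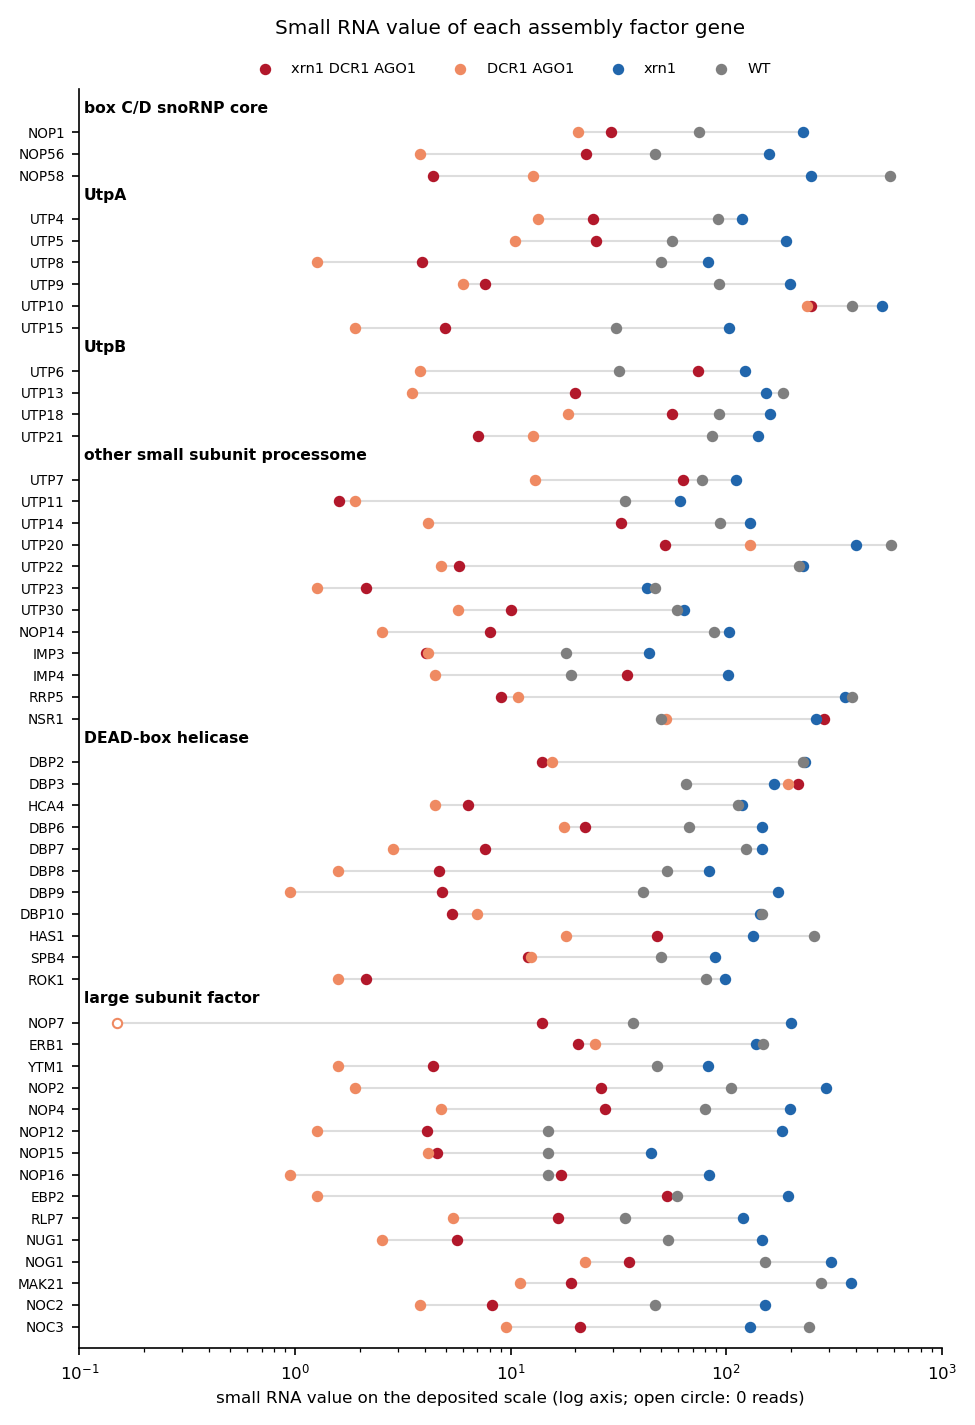
Small RNA value of each of the 51 genes on the deposited scale (log axis), grouped by role, with 1 point for each of the 4 libraries; the open circle is NOP7 with 0 reads in DCR1 AGO1. Most genes have both DCR1 AGO1 libraries to the left of xrn1 and WT, and the highest values in DCR1 AGO1 are those of UTP10 (238), DBP3 (193), UTP20 (129) and NSR1 (52.7).

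Levels per kilobase put different members first in each library. The order in xrn1 DCR1 AGO1 was NSR1 (228 per kilobase), DBP3, UTP6, UTP10 and EBP2, and in DCR1 AGO1 it was DBP3 (123 per kilobase), UTP10, NSR1, NOP1 and UTP20. In xrn1 it was NOP1 (231 per kilobase), NSR1, NOP58, NOG1 and NOP2. In WT, NOP58 was first with 374 per kilobase, ahead of HAS1 with 169, DBP2 with 139, NOC3 with 121 and MAK21. NOP58 alone of these 5 was also among the first 5 in xrn1, with 160.5 per kilobase.

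The comparison of DCR1 AGO1 over WT, in cells with XRN1, asks which genes have more or less small RNA once the pathway is present. For most assembly factors there was less on the deposited scale: 48 of 51 were 2-fold or more lower, 1 was higher and 2 were neither. Of the 51, 16 were counted only through their value in WT and could not have been called higher. Among 5456 nuclear genes counted, 60.1% were lower and 15.3% were higher. The median log2 difference of the members was -2.87, against -1.56 for nuclear genes, and 45 members were below the nuclear median. Division by median-of-ratios size factors, which moved the nuclear median by 1.54, left 32 members lower and 3 higher, against 31.9% and 34.5% of nuclear genes.

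All 3 box C/D core genes were lower on the deposited scale. NOP58, which encodes a core protein of these snoRNPs, had 12.7 in DCR1 AGO1 (40 reads), against 574 in WT, and was 45.2-fold lower (32.8 to 63.9), the lowest log2 difference of all members at -5.18. NOP56, its partner in the same particle, had 3.81 in DCR1 AGO1 and 47 in WT. NOP1, the fibrillarin gene for the RNA methyltransferase, had 20.6 in DCR1 AGO1 and 75 in WT (log2 difference -1.71), a direction that turned with size factors (0.04). The core genes of one particle therefore ranged from 3.63-fold to 45.2-fold lower.

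Of the 6 UtpA genes 5 were lower, and of the 4 UtpB genes 4. UTP10, which encodes a UtpA protein, was the exception, with 238 in DCR1 AGO1 (749 reads) and 385 in WT, a difference of -0.69 that turned to 1.20 with size factors. In UtpB, UTP13 had 3.49 in DCR1 AGO1 (11 reads) and 184 in WT, 52.7-fold lower (28.8 to 107), and UTP21 had 12.7 in DCR1 AGO1 and 86 in WT.

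Of the 12 other small subunit genes 11 were lower, among them the RRP5 gene, whose protein acts in the assembly of both subunits, with 10.8 in DCR1 AGO1 (34 reads) and 385 in WT (35.7-fold, 25.1 to 52.2). UTP22, a processome gene, had 4.76 in DCR1 AGO1 (15 reads) and 217 in WT (45.6-fold, 27.0 to 82.8), and IMP4, whose product joins the processome with Imp3 and Mpp10, had 4.45 in DCR1 AGO1 and 19 in WT. NSR1, the yeast nucleolin gene, did not differ by 2-fold: it had 52.7 in DCR1 AGO1 (166 reads) and 50 in WT, a ratio of 1.05 (0.764 to 1.48), and its log2 difference of 0.07 turned to -0.25 with division by library sums.

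Helicase genes were lower in 10 of 11, with a median log2 difference of -3.61. DBP2, a helicase gene of RNA quality control and ribosome assembly, had 15.6 in DCR1 AGO1 and 228 in WT, and HAS1, which acts on both subunits, had 18.1 in DCR1 AGO1 and 256 in WT. DBP6, a large subunit helicase gene, had 17.8 in DCR1 AGO1 and 67 in WT (-1.74). DBP3, a helicase gene of the large subunit pathway, was the 1 member that was higher, with 193 in DCR1 AGO1 (607 reads) and 65 in WT, a ratio of 2.97 (2.29 to 3.89).

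All 15 large subunit factor genes were lower on the deposited scale. NOP7, which acts in a complex with Erb1 and Ytm1, had 0 reads in DCR1 AGO1 and 37 in WT, at least 38.8-fold lower when the 0 is set to a floor of 3 reads. The exact interval, which also covers the counting error of the 37 reads in WT, begins at 30.04-fold lower. NOP2, a ribosomal RNA methyltransferase gene, had 1.91 in DCR1 AGO1 (6 reads) and 105 in WT (55.1-fold, 24.5 to 154). ERB1 had 24.8 in DCR1 AGO1 and 148 in WT, and NOG1, a GTPase gene, 22.2 in DCR1 AGO1 and 151 in WT. NOP15, at 4.13 in DCR1 AGO1 and 15 in WT, had the smallest difference of the large subunit genes (-1.32), and it turned to 0.03 with size factors.

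The comparison of xrn1 DCR1 AGO1 over xrn1 puts the same question to cells without XRN1, with the other 2 libraries. Of the 51 members 47 were 2-fold or more lower and 0 higher, against 57.9% lower and 15.4% higher of 5422 nuclear genes, and 3 of the 51 were counted only through xrn1. The median log2 difference was -2.87, against -1.45 for nuclear genes. With size factors, which moved the nuclear median by 1.43, 37 members were lower and 2 higher, against 31.3% and 33.3% of nuclear genes. In both backgrounds 46 of the 51 members were lower, while 2609 of 5362 nuclear genes counted in both, or 48.7%, were. The 2 comparisons share no library.

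NOP58 again had the lowest difference, with 4.35 in xrn1 DCR1 AGO1 (57 reads) and 247 in xrn1 (56.7-fold, 43.3 to 75.6). RRP5 had 9.07 in xrn1 DCR1 AGO1 and 357 in xrn1 (39.3-fold, 32.5 to 47.9), and UTP22 had 5.79 in xrn1 DCR1 AGO1 and 226 in xrn1 (39.1-fold, 30.8 to 50.2). The same 3 genes were thus among the 5 lowest in both backgrounds. The others were NOP12, a large subunit factor gene, with 4.12 in xrn1 DCR1 AGO1 and 181 in xrn1 (44.1-fold, 33.3 to 59.4), and the helicase gene DBP9, with 4.802 in xrn1 DCR1 AGO1 and 173 in xrn1 (36.1-fold, 27.8 to 47.7). NOP12 and DBP9 had only 15 and 41 reads in WT and 4 and 3 in DCR1 AGO1, so that cells with XRN1 offer little depth for them.

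The 4 members that were not 2-fold lower were DBP3, NSR1, UTP6 and UTP7. DBP3 had 216 in xrn1 DCR1 AGO1 (2828 reads) and 166 in xrn1, a ratio of 1.297 (1.18 to 1.43). NSR1 had 284 in xrn1 DCR1 AGO1 (3721 reads) and 262 in xrn1, a ratio of 1.08 (1.002 to 1.17). UTP6, a UtpB gene, had 74.5 in xrn1 DCR1 AGO1 and 122 in xrn1 (-0.69, and 0.86 with size factors), and the processome gene UTP7 had 62.9 in xrn1 DCR1 AGO1 and 112 in xrn1 (-0.80, and 0.75 with size factors). UTP10 was just past the threshold, with 247 in xrn1 DCR1 AGO1 and 527 in xrn1 (-1.08), and its direction turned with size factors (0.51), as did those of UTP18 (-1.45, then 0.10), IMP4 (-1.47, then 0.06) and HAS1 (-1.43, then 0.12). Per kilobase, UTP10 ranked among the first 5 members in both libraries with DCR1 and AGO1.

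**Figure D2:**
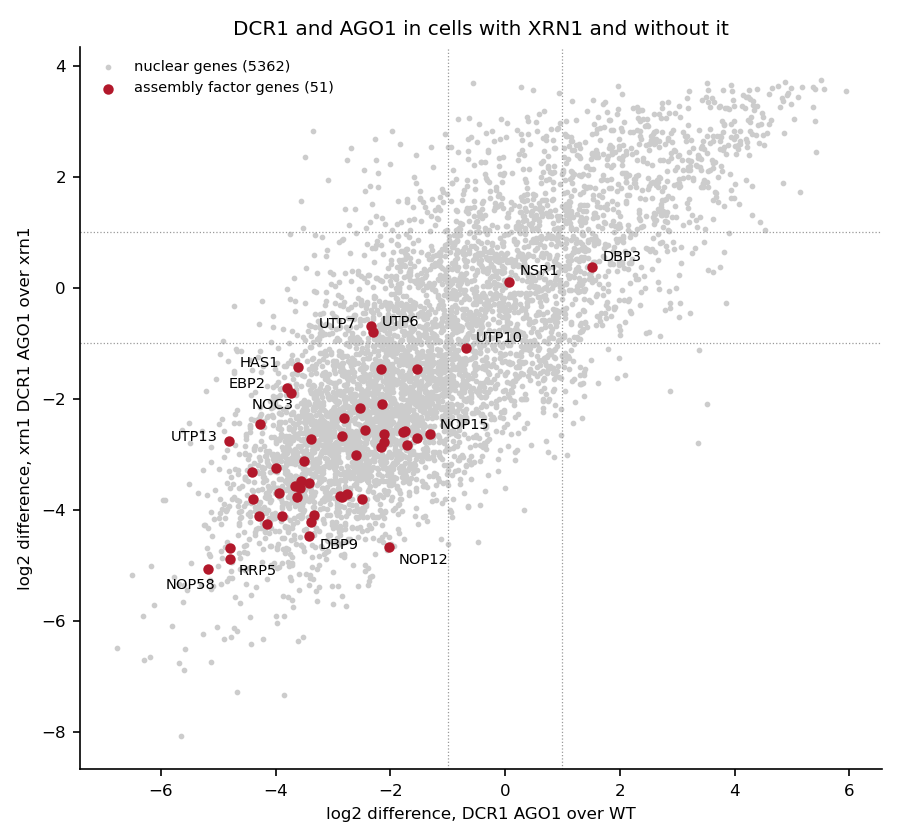
Log2 difference on addition of DCR1 and AGO1 in cells with XRN1 (horizontal) and without it (vertical) for 5362 nuclear genes (grey) and the 51 assembly factor genes (red); dotted lines mark 2-fold. The members lie mostly in the lower left, with 46 past 2-fold on both axes, and DBP3 (1.52 and 0.37) and NSR1 (0.07 and 0.11) lie apart from them.

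Since whole reads could be recovered, an additive model of DCR1 and AGO1 and of XRN1 deletion was fitted over all genes with edgeR, in which the 2 backgrounds stand in for replicates and 1 residual degree of freedom is left. At an adjusted p under 0.05 (quasi-likelihood test, Benjamini-Hochberg over 5429 genes), 26 members were lower and 1 was higher with DCR1 and AGO1, while 19.2% of all genes were called lower and 20.8% higher. This fit scales libraries by TMM, so that the median over all genes was -0.10, and the median of the members was -1.89. UTP22 had -3.73 on the log2 scale (edgeR adjusted p = 0.000363), ROK1, a small subunit helicase gene, -3.93 (adjusted p = 0.000386), and NOP58 -3.99 (adjusted p = 0.000425), and each was lower in 2 of 2 backgrounds. Of the 11 helicase genes 7 fell, with ROK1 lowest, then DBP9 (-3.62, edgeR adjusted p = 0.00077), and DBP2 last (-2.30, adjusted p = 0.0146). DBP3 rose by 2.63 (edgeR adjusted p = 0.0169), with log2 differences above 0 in 2 of 2 backgrounds on the deposited scale, although the 0.37 in cells without XRN1 was under 2-fold. NSR1 had 1.76 (edgeR adjusted p = 0.0909), UTP10 0.77 (adjusted p = 0.512) and UTP6 -0.12 (adjusted p = 0.919), none of which passed.

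Deletion of XRN1 in cells without the pathway (xrn1 over WT) asks how small RNAs differ where the exonuclease is missing and no Dicer is present. Of the 51 members 23 were 2-fold or more higher and 1 lower, against 33.3% higher and 9.9% lower of 5484 nuclear genes. The median log2 difference was 0.76, against 0.51 for nuclear genes. With size factors, which moved the nuclear median by -0.44, 14 members were higher and 4 lower, against 19.6% and 16.3% of nuclear genes. Division by library sums also gave 14 and 4, against 21.05% and 17.7% of nuclear genes.

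The number of members that were higher varied by role on the deposited scale, where 33.3% of nuclear genes were higher. Large subunit factor genes were higher in 11 of 15 (median 1.39), helicase genes in 3 of 11 (median 0.27), other small subunit genes in 3 of 12 (0.33), UtpA genes in 3 of 6 and UtpB genes in 1 of 4. No test of a difference between roles was made, and the counts by role were not repeated with other scalings. NOP12 had the highest difference, with 181 in xrn1 and 15 in WT, a ratio of 12.1 (7.27 to 21.8). NOP7 had 200 in xrn1, against 37 in WT (5.40-fold, 3.87 to 7.75). NOP16, a large subunit gene, had 83.3 in xrn1 and 15 in WT (5.55-fold, 3.30 to 10.1). In the small subunit group NSR1 had 262 in xrn1 and 50 in WT (5.24-fold, 3.94 to 7.12), and IMP4 had 102 in xrn1 and 19 in WT (5.36-fold, 3.37 to 9.02). NOP12, NOP16 and IMP4 had under 20 reads each in WT, and their intervals are accordingly wide.

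NOP58 was the 1 member 2-fold or more lower, with 247 in xrn1 and 574 in WT (2.33-fold, 2.09 to 2.60), while the other box C/D genes were higher: NOP1 had 227 in xrn1 and 75 in WT, and NOP56 had 159 in xrn1 and 47 in WT. HAS1 had 134 in xrn1 and 256 in WT (-0.92), NOC3, a large subunit factor gene, 129 in xrn1 and 242 in WT (-0.89), UTP20, which encodes a large processome protein, 399 in xrn1 and 585 in WT (-0.55), and UTP13 153 in xrn1 and 184 in WT (-0.26). DBP2 (232 in xrn1, 228 in WT), RRP5 (357 in xrn1, 385 in WT), UTP22 (226 in xrn1, 217 in WT) and ERB1 (137 in xrn1, 148 in WT) had nearly equal values on the deposited scale. That depends on the scaling: with size factors the log2 difference of DBP2 turned from 0.02 to -0.43 and that of UTP22 from 0.06 to -0.39.

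**Figure D3:**
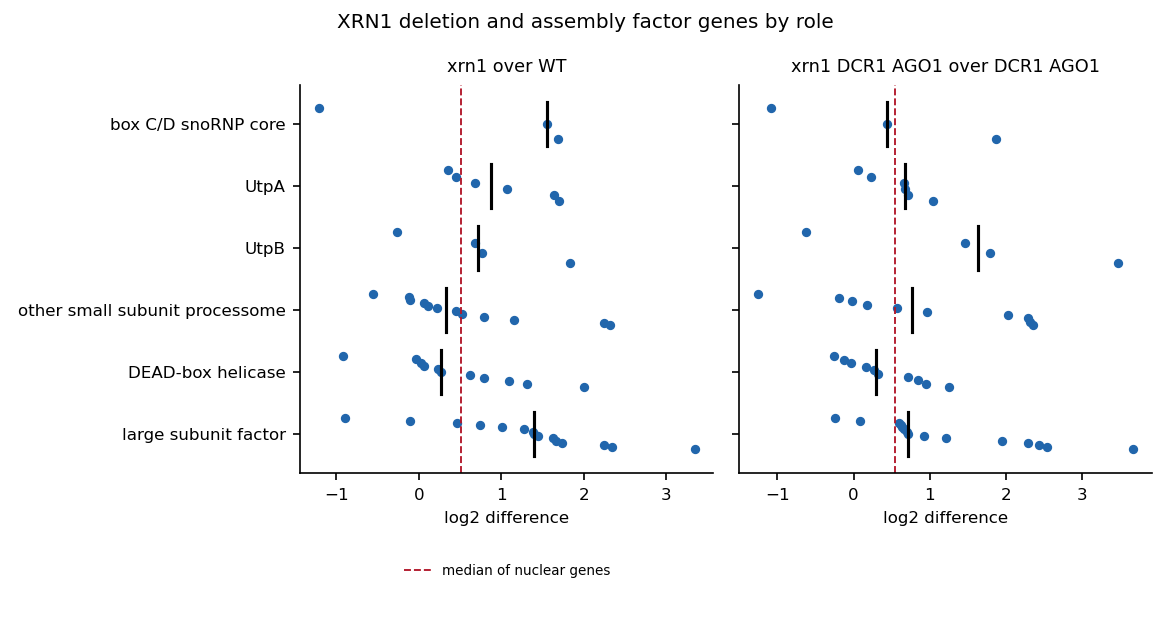
Log2 difference on deletion of XRN1 by role, without DCR1 and AGO1 (left, 51 genes) and with them (right, 48 genes); each point is a gene, spread vertically for sight only, black bars are role medians and the dashed line is the median of nuclear genes (0.51 left, 0.55 right). The large subunit factor genes have a median of 1.39 on the left and 0.71 on the right.

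Deletion of XRN1 in cells with the pathway (xrn1 DCR1 AGO1 over DCR1 AGO1) compares libraries in which member values were low. Only 48 members could be counted, since UTP11, UTP23 and ROK1 did not reach the pseudocount in either library, and 13 of the 48 passed only through xrn1 DCR1 AGO1 and could not have been called lower. Of the 48, 16 were 2-fold or more higher and 2 lower, against 33.2% higher and 11.5% lower of 5068 nuclear genes, so the share of members that were higher, 33.3%, was that of nuclear genes. With size factors, which moved the nuclear median by -0.60, 12 of 50 members were higher and 3 lower, against 19.99% and 23.9% of nuclear genes. This comparison shares libraries with those above and is no independent check of them.

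EBP2, a large subunit factor gene, had the highest difference, with 53.4 in xrn1 DCR1 AGO1 (700 reads) and 1.27 in DCR1 AGO1 (4 reads), a ratio of 42.0 (16.3 to 155). UTP6 had 74.5 in xrn1 DCR1 AGO1 (977 reads) and 3.81 in DCR1 AGO1 (12 reads), a ratio of 19.5 (11.1 to 38.0). NSR1 had 284 in xrn1 DCR1 AGO1 and 52.7 in DCR1 AGO1 (5.38-fold, 4.60 to 6.32), IMP4 had 34.8 in xrn1 DCR1 AGO1 and 4.45 in DCR1 AGO1 (7.84-fold, 4.62 to 14.4), and UTP14, a processome gene, had 32.5 in xrn1 DCR1 AGO1 and 4.13 in DCR1 AGO1 (7.88-fold, 4.56 to 14.9). NSR1 and IMP4 were thus high on deletion of XRN1 with the pathway and without it, and 11 of the 48 members counted in both comparisons were 2-fold or more higher in both, against 794 of 5036 nuclear genes, or 15.8%. UTP20 was lower, with 51.9 in xrn1 DCR1 AGO1 and 129 in DCR1 AGO1 (2.48-fold, 2.19 to 2.81), and so was NOP58, with 4.35 in xrn1 DCR1 AGO1 and 12.7 in DCR1 AGO1. DBP3, at 216 in xrn1 DCR1 AGO1 and 193 in DCR1 AGO1, and UTP10, at 247 in xrn1 DCR1 AGO1 and 238 in DCR1 AGO1, had log2 differences of 0.16 and 0.05, which turned to -0.59 and -0.70 with size factors. NOG1 had 35.3 in xrn1 DCR1 AGO1 and 22.2 in DCR1 AGO1 (0.60, and -0.09 with size factors).

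In the additive fit XRN1 deletion called 0 members at an adjusted p under 0.05 by edgeR. At an unadjusted p under 0.05 (edgeR quasi-likelihood test) there were 11 of 51 members, or 21.6%, against 13.4% of all genes. DESeq2 called 3 of 47 members tested, against 206 of 4680 genes. Over all genes edgeR called 0.184% higher and 0.239% lower. The lowest adjusted p was that of NOP7, at 3.18 on the log2 scale (edgeR adjusted p = 0.0568), followed by EBP2 at 2.81 (adjusted p = 0.09) and UTP6 at 2.59 (adjusted p = 0.107).

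**Figure D4:**
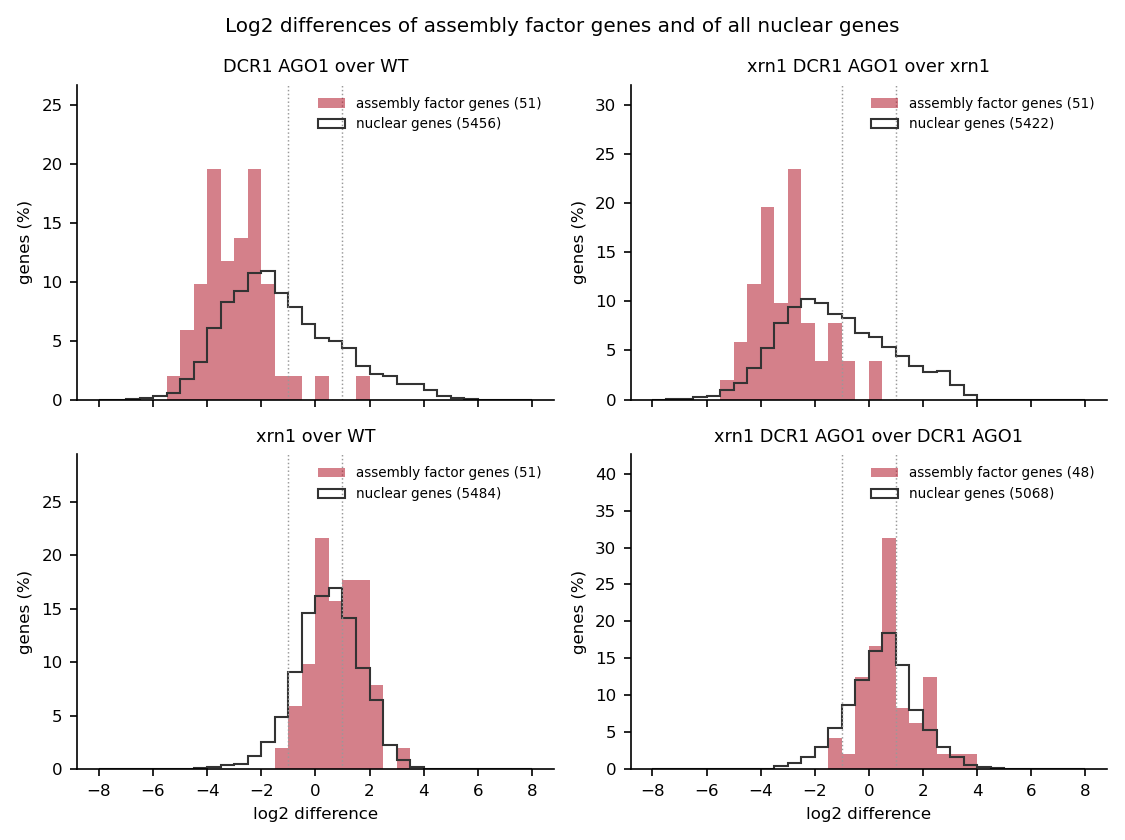
Share of genes by log2 difference, in bins of width 0.5, for the assembly factor genes (red) and all nuclear genes counted (black outline) in the 4 comparisons; dotted lines mark 2-fold. In the upper panels the members lie to the left of nuclear genes, with medians of -2.87 in both against -1.56 and -1.45, and in the lower panels the distributions largely overlap.

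The size of the DCR1 and AGO1 difference was not the same in both backgrounds for every member. Between backgrounds the difference without XRN1 minus that with XRN1 had a median of -0.02 over members and -0.04 over 5362 nuclear genes. It was 1 or more in 8 members and -1 or less in 7, and in 22.55% and 24.3% of nuclear genes. The highest were HAS1 (2.18), UTP13 (2.06), EBP2 (2.01), UTP14 (1.84), NOC3 (1.82), UTP6 (1.64), UTP7 (1.51) and NOP2 (1.09), and the lowest was NOP12 (-2.63), followed by UTP21 (-1.32), NOP15 (-1.31) and IMP3 (-1.17). NOP12, NOP15 and IMP3 had 15, 15 and 18 reads in WT, where the pseudocount limits how low DCR1 AGO1 over WT can go. Their counting intervals overlapped between backgrounds: NOP12 was 3.76-fold to 48.9-fold lower with XRN1 and 33.3-fold to 59.4-fold without it. Those of UTP21 did not overlap (4.60-fold to 10.1-fold lower with XRN1, 15.8-fold to 25.1-fold without it). With 1 library a genotype these differences of differences were not tested.

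**Figure D5:**
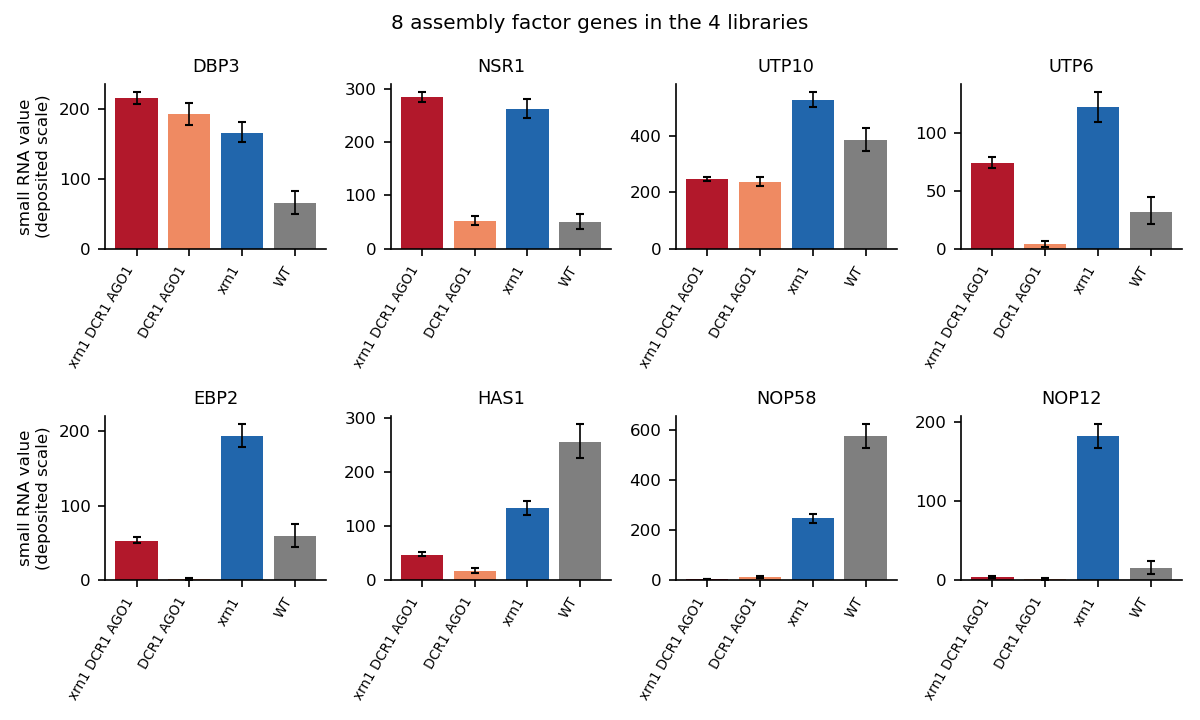
Small RNA value on the deposited scale of 8 assembly factor genes in xrn1 DCR1 AGO1, DCR1 AGO1, xrn1 and WT, from left to right; bars start at 0 and error bars are exact Poisson 95% intervals of counting error alone. DBP3 is lowest in WT (65), NSR1 is high in both libraries without XRN1 (284 and 262), EBP2 has 4 reads in DCR1 AGO1, NOP58 is highest in WT (574), and NOP12 reaches 181 in xrn1 and at most 15 in the other libraries.

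Neighbouring genes bear on reads that could come from overlapping transcripts. No annotated gene span of R64 overlapped that of a member. Transcript ends and unannotated antisense RNA were not looked at, so whether transcripts overlap was not tested. The next gene downstream lay on the opposite strand, facing the member, for 28 members and on the same strand for 23. In DCR1 AGO1 over WT the median log2 difference was -3.40 for the 28 and -2.81 for the 23, and in xrn1 DCR1 AGO1 over xrn1 it was -2.99 and -2.84. DBP3 lies next to HNM1, a choline transporter gene on the same strand upstream, which had 2132 in xrn1 DCR1 AGO1 and 1940 in DCR1 AGO1, against 300.0 in xrn1 and 110 in WT. UTP6 faces ADA2, a transcriptional adaptor gene, which had 613 in xrn1 DCR1 AGO1 and 122 in DCR1 AGO1, against 164 in xrn1 and 23 in WT. NUG1, a GTPase gene of the large subunit pathway, also lies downstream of a gene with high values, YND1, which had 2224 in xrn1 DCR1 AGO1 and 2093 in DCR1 AGO1, against 272 in xrn1 and 81 in WT. NUG1 itself was lower, with 5.64 in xrn1 DCR1 AGO1 and 2.54 in DCR1 AGO1, against 147 in xrn1 and 54 in WT. EBP2 had 1.27 in DCR1 AGO1, where NNK1, the next gene downstream on the same strand, had 1136. These pairs were picked after the values were seen, and how often members and neighbours went together was not counted. Whether reads of a neighbour were counted for a member was not tested, and neither the labels nor the table give the strand of reads.

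Other genes of the pathway were counted in the same way, beside nuclear shares of 60.1% lower in DCR1 AGO1 over WT, 57.9% lower in xrn1 DCR1 AGO1 over xrn1, 33.3% higher in xrn1 over WT and 33.2% higher in xrn1 DCR1 AGO1 over DCR1 AGO1. No difference between lists was tested. Of 72 other ribosome assembly factor genes 63 were 2-fold or more lower and 0 higher in DCR1 AGO1 over WT, from RRP3, a helicase gene (-5.36), to NOC4, a processome gene (0.88), with a median of -2.57. Of the 72, 24 were counted only through WT and could not have been called higher. In xrn1 DCR1 AGO1 over xrn1 60 were lower and 1 higher (median -3.05), with 4 of the 72 counted only through xrn1. The 1 higher was RRP1, with 353 in xrn1 DCR1 AGO1 and 108 in xrn1, and the lowest was NOG2, a GTPase gene whose intron holds a snoRNA gene, with a difference of -7.33. On deletion of XRN1 38 of the 72 were higher and 0 lower in xrn1 over WT, from LTV1 (-0.57) to NOG2 (3.90). With the pathway, 28 of 69 were higher and 0 lower in xrn1 DCR1 AGO1 over DCR1 AGO1, from LOC1 (-0.67) to RRP1 (3.10). Of the 69, 21 were counted only through xrn1 DCR1 AGO1 and could not have been called lower. Of the 4 box H/ACA snoRNP genes 3 were lower in DCR1 AGO1 over WT and 4 in xrn1 DCR1 AGO1 over xrn1, and all 4 were higher in xrn1 over WT, from NHP2 (1.12) to NOP10 (2.61). Of them GAR1 had 36.2 in DCR1 AGO1 and 30 in WT. On addition of DCR1 and AGO1, 2 of the 4 were counted only through WT and 1 only through xrn1. RNA polymerase I genes, which encode the enzyme that makes the ribosomal RNA precursor, were lower in 5 of 7 in DCR1 AGO1 over WT and in 7 of 7 in xrn1 DCR1 AGO1 over xrn1, with RPA135 lowest in both (-3.83 and -4.29) and RPA34 highest (-0.57 and -1.54), and 5 of 7 were higher in xrn1 over WT, from RPA135 (0.31) to RPA14 (2.28) over all 7. In DCR1 AGO1 over WT, 2 of these 7 were counted only through WT. In xrn1 DCR1 AGO1 over DCR1 AGO1, 1 of 3 box H/ACA genes counted was higher, from GAR1 (0.19) to CBF5 (2.20), and 2 polymerase I genes were higher and 1 lower, from RPA49 (-2.11) to RPA43 (1.37). There 1 of the 3 and 2 of the 7 polymerase I genes were counted only through xrn1 DCR1 AGO1. Cytosolic ribosomal protein genes had medians of -3.24 and -4.27 on addition of DCR1 and AGO1, against -2.87 and -2.87 for the assembly factors, and mitochondrial ribosomal protein genes had -2.84 and -2.52. Only through WT were 44 of 134 cytosolic and 25 of 43 mitochondrial genes counted in DCR1 AGO1 over WT. In xrn1 DCR1 AGO1 over xrn1, 35 of 136 and 10 of 43 were counted only through xrn1. The extremes in DCR1 AGO1 over WT were RPS22B (-6.19) and RPS29A (-0.52) among cytosolic genes and MRPL22 (-5.06) and MRPL51 (1.72) among mitochondrial ones. In xrn1 DCR1 AGO1 over xrn1 they were RPL25 (-8.07) and RPS29A (-0.17), and MRPS35 (-5.09) and MRPL38 (1.94). On deletion of XRN1 they were RPL18B (-0.67) and RPL22B (3.67), and MRPL1 (-0.92) and MRPS12 (2.76), in xrn1 over WT. They were RPP0 (-1.30) and RPS18A (3.37), and MRPL11 (-0.79) and MRPL44 (3.35), in xrn1 DCR1 AGO1 over DCR1 AGO1. Many cytosolic ribosomal proteins are encoded by a pair of nearly identical genes, whose small RNA values cannot be told apart with certainty.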

How the data were processed

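Small RNA was measured in 4 libraries, grouped by the genotype in their labels. The tools cutadapt and Bowtie appear by name alone, with no role, in the submitters' processing notes. No version, build, annotation, strand or scaling rule was found in the sources used here. The WT column holds a count of reads for each gene, a whole number, in the table the authors deposited. The other 3 columns hold a signal that the authors deposited: 100% of values were a whole number of times the lowest value above 0 (tolerance 1e-06), which gave back the reads. Symbols, coding lengths, neighbours and promoters come from RefSeq R64, which matched 5789 of 5798 identifiers. Its coordinates are not printed, since the build of the table is not known.

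Differences are of log2(value + 3.18), the pseudocount being the 10th percentile of values above 0, which understates changes of low genes. Genes with a library at or above it were counted, and called at 2-fold. Ratios and shares have Clopper-Pearson intervals and values exact Poisson intervals. edgeR 4.0.16 in R 4.3.3 (TMM, filterByExpr, quasi-likelihood) fitted the additive model to the recovered reads, with DESeq2 1.42.0 as an alternative. A call at 2-fold carries no error rate. Other pseudocounts, filters and library scalings were tried.

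Genes were named by a rule: XRN1, the 5 members with the highest and the 5 with the lowest difference in each comparison (value of at least 31.8 in 1 library), the first 5 per kilobase in each library, members against the majority, representatives of each role, and the extremes of the pathway lists. UTP4, UTP9, UTP11, UTP15, UTP18, UTP23, UTP30, NOP14, IMP3, HCA4, DBP7, NOP15, ROK1, NUG1 and the neighbouring genes were named after their values were seen. The members and lists were chosen with earlier results of these data known, and the promoter search was added after the values were seen.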

Additional observations from a re-analysis of the deposited data

Results flagged for a closer look

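In 4 of 48 members (8.33%) the 2 effects of XRN1 deletion pointed in opposite directions, each by more than counting error, as in 847 of 5036 nuclear genes (16.8%). The share of members was thus below that of nuclear genes. However, 13 of the 48 were counted only through xrn1 DCR1 AGO1, so their difference with the pathway could not be below 0. Members also had few reads in DCR1 AGO1 (median 15), which widens counting intervals, and the shares were not compared at equal depth. UTP13 had a log2 difference of 1.80 in xrn1 DCR1 AGO1 over DCR1 AGO1 and -0.26 in xrn1 over WT. HAS1 had 1.26 in xrn1 DCR1 AGO1 over DCR1 AGO1 and -0.92 in xrn1 over WT, and NOC3 had 0.93 with the pathway and -0.89 without it. UTP21 went the other way, with -0.63 with the pathway and 0.69 without it. The difference between the backgrounds was not tested.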

How the results depend on the processing

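No paired analysis was possible because the labels give no replicate numbers and each genotype had 1 library; the additive fit takes the XRN1 background as a term. Without any 1 library that fit has no residual degrees of freedom, so none was left out. On addition of DCR1 and AGO1, member counts 2-fold or more lower stayed within 1.5 times the main count under every alternative tried, and the relative median (members minus nuclear genes) stayed below 0. At a pseudocount of 31.8 it was -0.72 in DCR1 AGO1 over WT and -1.01 in xrn1 DCR1 AGO1 over xrn1, where it had been -1.31 and -1.41. With size factors 3 and 2 members were higher in those comparisons, against 34.5% and 33.3% of nuclear genes. In xrn1 over WT 14 were higher and 4 lower, against 19.6% and 16.3% of nuclear genes, with the same member counts on division by library sums. Of members called at 2-fold, NOP1 (0.04), NOP15 (0.03), UTP10 (0.51), UTP18 (0.10), IMP4 (0.06) and HAS1 (0.12) turned with size factors, the first 2 in DCR1 AGO1 over WT and the others in xrn1 DCR1 AGO1 over xrn1. Of members not called, UTP10 (1.20) turned in DCR1 AGO1 over WT, and UTP6 (0.86) and UTP7 (0.75) in xrn1 DCR1 AGO1 over xrn1. NSR1 turned to -0.25 in DCR1 AGO1 over WT with library sums. In xrn1 over WT, UTP4, UTP10, UTP22, UTP30, NOP14, DBP2, HCA4, DBP7 and ROK1 fell below 0 with size factors and with library sums. In xrn1 DCR1 AGO1 over DCR1 AGO1, NOP1, UTP9, UTP10, UTP22, DBP3, HCA4, DBP6, NOP15 and NOG1 fell below 0 with size factors.

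XRN1 deletion with the pathway depended most on settings. In xrn1 DCR1 AGO1 over DCR1 AGO1, 27 of 48 members were higher at a pseudocount of 0.318 (relative median 0.48), against 41.3% of nuclear genes. At 31.8, 4 were higher and 0 lower, against 11.7% and 6.61% of nuclear genes, and the relative median was -0.0027 (0.15 as reported). The share of nuclear genes thus moved in the same direction as the member count. With a filter at 31.8, which leaves 12 members, 8 were higher and 1 lower (relative median 1.27), against 37.7% and 19.98% of 2497 nuclear genes. Of the 12, UTP6, UTP7, UTP14, UTP18, IMP4, HAS1, EBP2 and NOG1 reached 31.8 only in xrn1 DCR1 AGO1. They could not have been called lower, so this setting favours higher calls and a higher relative median. In the additive fit DESeq2 called 2 of 51 members higher for DCR1 and AGO1, against 1357 of 5670 genes. For XRN1 deletion it called 3 of 47 members higher, against 94 of 4680 genes. For that deletion edgeR without a filter called 1 of 51 members higher, against 25 of 5670 genes. Beyond the choice of members that the filter leaves, the cause was not tested. Depth limits the low values in DCR1 AGO1, where the median member had 15 reads.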
